A study of Mus musculus with 23 samples.

Results

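This is an account of 9 complement genes in the mouse sciatic nerve, taken by symbol: C1qa, C1qb and C1qc, C2, C4b, C3, Cfb, C3ar1 and C5ar1. Each symbol matched 1 gene among the 43068 listed in the libraries of the crush experiment and among the 22880 listed in those of the mutant experiment, and all 9 were measured in all 23 RNA sequencing libraries, which fall into 7 groups. In the crush experiment, wild-type mice on a C57bl6 background contributed crushed nerves (n = 4) and contralateral, uninjured nerves (n = 4) taken 3 days after crush, and uncrushed nerves from a surgery control (n = 3). In the mutant experiment, also on C57bl6, every animal carried homozygous floxed alleles of Dicer1 or of Dgcr8 and received tamoxifen 3 months before collection. The mutants (Dicer iKO and Dgcr8 iKO, n = 3 each) carried P0-CreERT2, a tamoxifen-inducible Cre under peripheral myelin gene regulatory sequences that acts in adult myelinating Schwann cells, and their controls (n = 3 each) lacked it. The paper reports that mutants had been preselected for affected nerve morphology because penetrance was incomplete. Dicer and Dgcr8 are needed to make most microRNAs.

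Complement is a cascade of plasma and tissue proteins that tags targets for uptake and calls in immune cells. C1q, assembled from A, B and C chains, recognises targets and opens the classical pathway, in which C4 and C2 form the enzyme that cleaves C3. C3 is where all routes meet, and factor B joins cleaved C3 in the enzyme of the alternative pathway. The small fragments released from C3 and C5 act on the receptors C3aR1 and C5aR1 of myeloid cells, and in injured peripheral nerve complement is known to take part in the clearance of myelin debris by macrophages.

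C1qa, C1qb and C1qc lie side by side on chromosome 4 (GRCm38, minus strand; C1qa at chr4:136895917-136898803, C1qb at chr4:136880129-136886187 and C1qc at chr4:136889804-136893065). C4b (chr17:34728380-34743882), Cfb (chr17:34856374-34862518) and C2 (chr17:34862604-34898265) share the class III region of the major histocompatibility complex on chromosome 17. C3 (chr17:57203970-57228136), C3ar1 (chr6:122847138-122856161) and C5ar1 (chr7:16246743-16259540) stand apart. The promoter windows printed here are those of 3 members that rose together after crush and in both mutants, and of C3, which fell after crush. RefSeq promoter windows (GRCm38.p6, 250 bases before to 50 bases after the start of the gene, 5′ to 3′ on the gene's strand) were found for 5 of the 9 members. Capitals mark matches, on either strand, to GAGGAA (the core that the myeloid factor PU.1 binds), TGACTCA (AP-1) or TTGCNNAA (C/EBP).
C1qb, chr4:136886151-136886450, minus strand: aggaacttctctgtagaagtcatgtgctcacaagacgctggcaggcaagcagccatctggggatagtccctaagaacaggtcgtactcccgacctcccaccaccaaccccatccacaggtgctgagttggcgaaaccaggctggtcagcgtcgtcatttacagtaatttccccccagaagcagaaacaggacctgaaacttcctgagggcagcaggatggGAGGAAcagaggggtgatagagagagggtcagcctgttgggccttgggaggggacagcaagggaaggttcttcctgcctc
C1qc, chr4:136892865-136893164, minus strand: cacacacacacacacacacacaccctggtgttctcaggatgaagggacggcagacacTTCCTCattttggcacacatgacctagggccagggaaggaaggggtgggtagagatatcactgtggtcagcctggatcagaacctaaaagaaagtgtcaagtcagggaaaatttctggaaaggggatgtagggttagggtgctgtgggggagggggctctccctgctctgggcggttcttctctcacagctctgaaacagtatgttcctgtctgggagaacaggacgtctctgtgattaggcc
C3ar1, chr6:122856108-122856407, minus strand: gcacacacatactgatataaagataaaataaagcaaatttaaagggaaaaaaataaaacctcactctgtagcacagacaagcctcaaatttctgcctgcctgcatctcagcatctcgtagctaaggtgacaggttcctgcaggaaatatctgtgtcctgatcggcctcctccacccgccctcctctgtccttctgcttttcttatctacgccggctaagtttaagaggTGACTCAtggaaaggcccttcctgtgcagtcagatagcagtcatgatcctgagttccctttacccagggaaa
C3, chr17:57228087-57228386, minus strand: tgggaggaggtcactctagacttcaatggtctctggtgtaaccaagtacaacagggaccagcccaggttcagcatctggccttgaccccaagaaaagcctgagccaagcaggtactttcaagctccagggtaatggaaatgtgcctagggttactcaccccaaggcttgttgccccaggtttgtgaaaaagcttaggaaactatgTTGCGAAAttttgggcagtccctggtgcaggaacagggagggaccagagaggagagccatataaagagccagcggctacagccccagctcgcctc
The windows of C1qb and C1qc each held 1 match to GAGGAA, that of C3ar1 held 1 to TGACTCA and that of C3 held 1 to TTGCNNAA. The fifth window, that of C5ar1, held none of these letters. Of all 32851 promoter windows of that length, 28.3% held GAGGAA, 5.2% TGACTCA and 10.8% TTGCNNAA, so the GAGGAA matches in particular are common ones. The motifs were chosen after the sequences had been seen, and a match describes letters and not a binding site.

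The libraries held between 5594859 and 12806066 expected read counts. Levels are given as CPM, read counts scaled by library size, after TMM normalization within an experiment, and 3 counts corresponded to 0.233 to 0.458 CPM in the crush libraries and to 0.285 to 0.522 CPM in the mutant libraries. Levels were not compared between experiments, which by the labels used different library kits and which list different transcripts. The nerves carried their defining Schwann cell transcripts: 8 markers summed to between 36404 and 55480 CPM in the 7 uninjured nerves of the crush experiment and to between 2100 and 3215 CPM in crushed nerves. Dicer1 was at 82.1 ± 0.924 CPM in Dicer iKO and 89.1 ± 1.61 CPM in its controls, while Dgcr8 stood at 44.9 ± 7.72 CPM with Dgcr8 deleted against 38.3 ± 3.51 CPM without deletion (SD, n = 3), neither past the test. These gene sums cover the whole nerve and do not resolve the floxed exons, so they do not check the labels. Some libraries stood apart: crushed nerve 1 was the lowest crushed nerve for 14 summed macrophage markers (1029 against 1808 to 2392 CPM) and held adipocyte transcripts (12.1 CPM over 5 markers, against 0.89 to 2.11). Dicer control 2 and Dgcr8 iKO 2 also held adipocyte transcripts (83.6 and 65.4 CPM), and the 3 Dicer controls spread from 564 to 1364 CPM over the macrophage markers. Calls below were made at a fold change of at least 2 and an adjusted p of at most 0.05 in edgeR's quasi-likelihood test, adjusted over all genes tested.

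After crush, 6 of the 9 members rose and 3 fell. The C1q chains, Cfb and both anaphylatoxin receptors were higher in crushed than in uncrushed nerves, where 15.3% of 17433 genes were called up, and C4b, C2 and C3 were lower, where 21.1% were called down. Against contralateral nerves the same 6 rose (14.6% of 16667 genes were called up) and the same 3 fell (13.6% called down). These comparisons share the crushed nerves. No crushed nerve overlapped any uncrushed or contralateral nerve for any member. Without crushed nerve 1 the counts were again 6 and 3 in both comparisons. In bulk nerve, fewer cells of a type and less RNA per cell cannot be told apart, and this holds for every value that follows.

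In Dicer iKO, 4 members rose (the C1q chains and C3ar1), against 7.37% of 13045 genes called up, and none fell (1.64% called down). In Dgcr8 iKO, 7 members rose (the C1q chains, C2, Cfb, C3ar1 and C5ar1), against 13.4% of 13252 genes called up, and none fell (6.99% called down). No member was lower at an unadjusted p under 0.05 in either mutant, and DESeq2 called 0 lower. The difference between mutant effects was tested directly, and 0 of 9 members passed it. Over all genes, 0.0148% of 13552 passed it in edgeR. At an unadjusted p under 0.05 there were 2 members (C2 and Cfb) in edgeR, and 1861 of the 13552 genes. DESeq2 called 1 member (Cfb), and over all genes 172 higher and 68 lower.

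**Figure D1:**
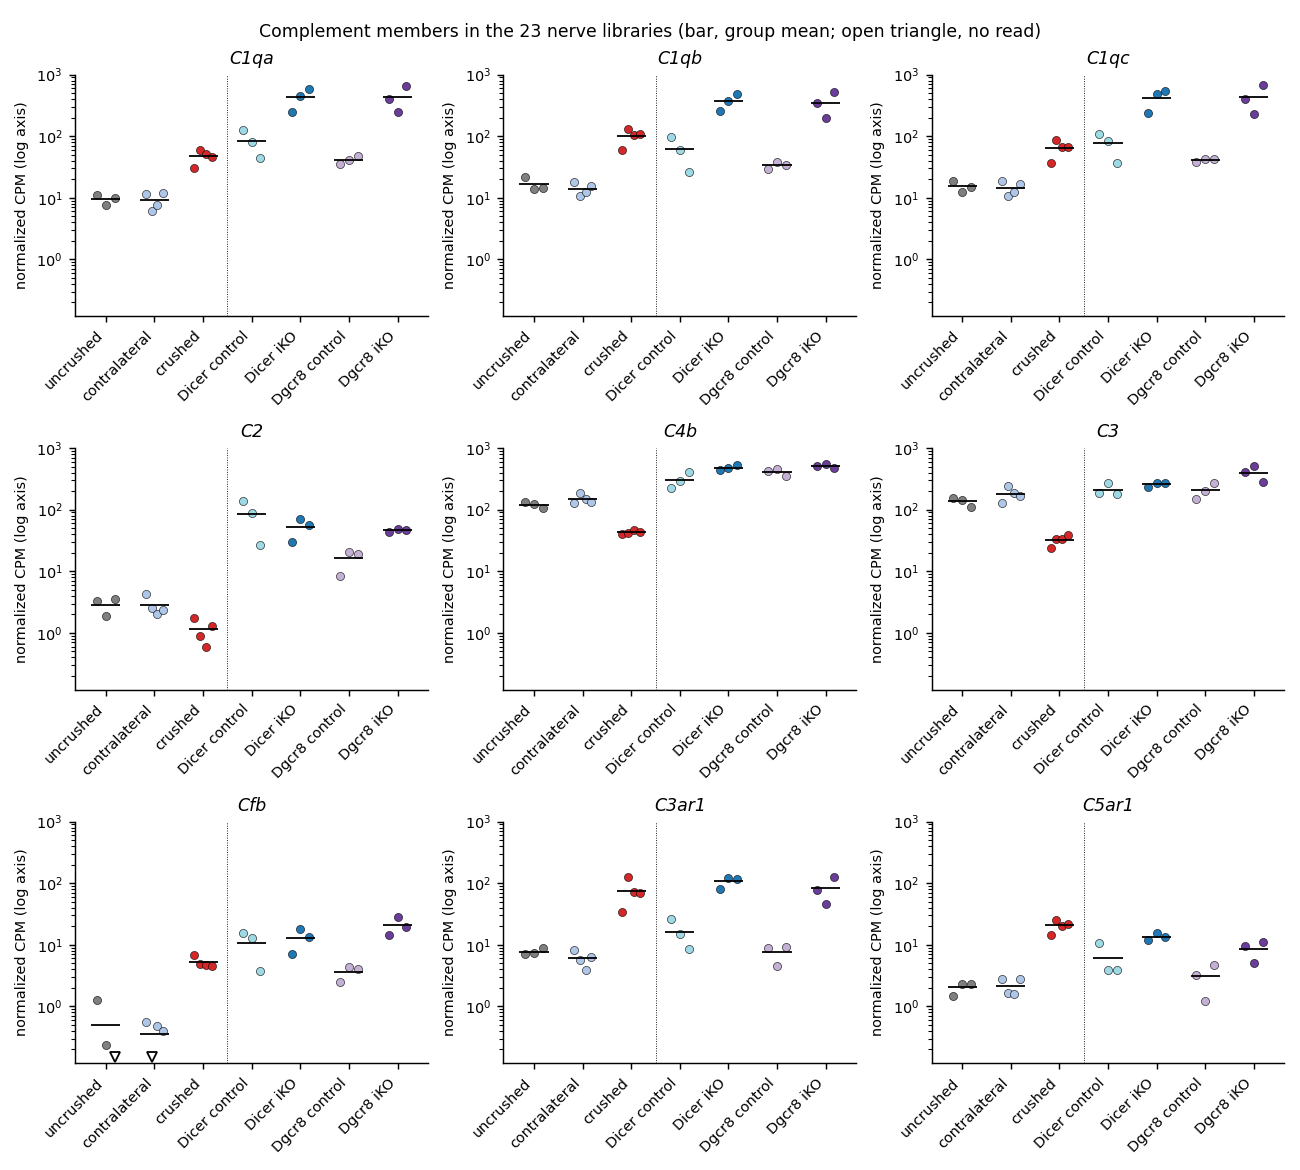
Normalized CPM (log axis) of each member in every library, by group, with a bar at the group mean and an open triangle where a library held no read; the dotted line separates the crush experiment from the mutant experiment. The crushed nerves sit above both uninjured groups for the C1q chains, Cfb, C3ar1 and C5ar1 and below them for C2, C4b and C3.

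**Figure D2:**
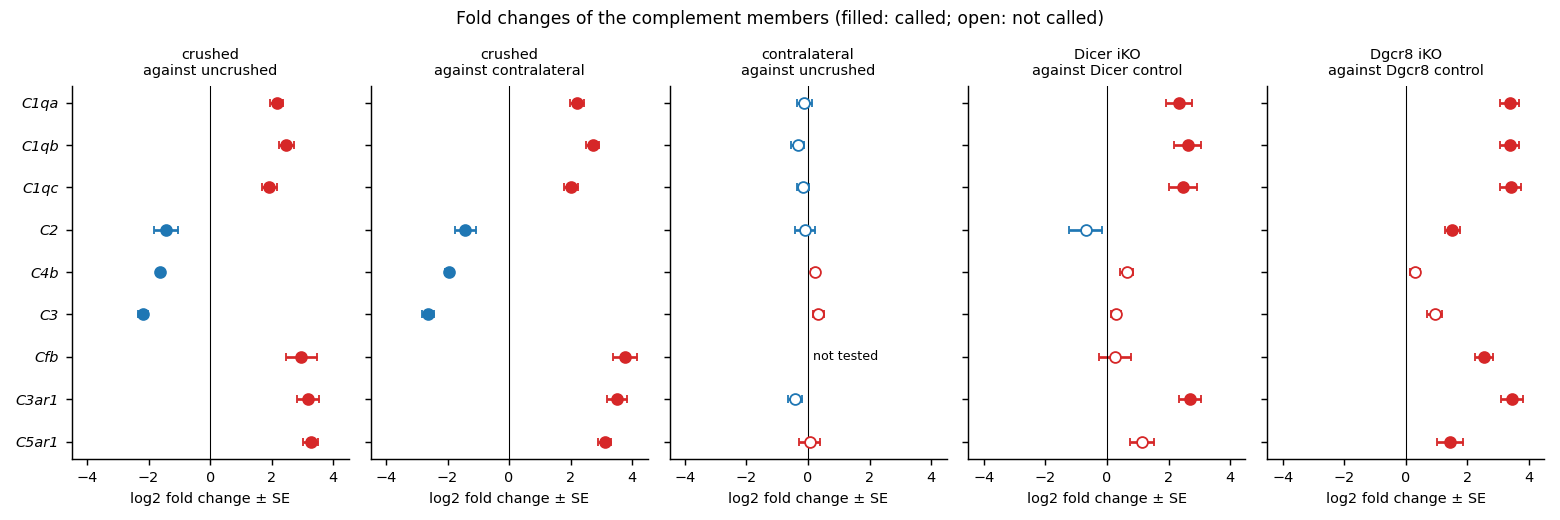
Log2 fold change with its SE for each member in the 5 comparisons, filled where called and open where not; red is higher and blue is lower in the group named in the upper line. Crush splits the members into 6 that rose and 3 that fell, whereas no member was called lower in either mutant.

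The C1q chains moved together. C1qa encodes the A chain and stood at 30.0, 59.9, 51.8 and 45.5 CPM in crushed nerves 1 to 4, at 11.3, 6.07, 7.63 and 12.02 CPM in contralateral nerves and at 10.9, 7.65 and 9.92 CPM in uncrushed nerves. The lowest crushed nerve was thus above the highest uninjured nerve. Its log2 fold change was 2.17 ± 0.216 (SE) against uncrushed (adjusted p = 2.91e-06, edgeR) and 2.21 ± 0.214 against contralateral nerves (adjusted p = 4.3e-07, edgeR). C1qb, the B chain, reached 59.1, 131.0, 106.3 and 110.3 CPM in crushed nerves against 10.5 to 18.1 CPM in contralateral and 13.9 to 21.4 CPM in uncrushed nerves. Its rise was 2.47 ± 0.249 on the log2 scale against uncrushed nerves (adjusted p = 3.23e-06, edgeR). C1qc, the C chain, was at 36.4, 86.1, 67.5 and 65.9 CPM in crushed nerves and between 10.6 and 18.5 CPM in the 7 uninjured nerves, a log2 fold change of 1.92 ± 0.245 against uncrushed nerves (adjusted p = 2.36e-05, edgeR). Crushed nerve 1 was the lowest of its group for all 3 chains, as it was for the macrophage markers.

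The chains rose in both mutants as well. C1qa was at 404, 244.5 and 644 CPM in Dgcr8 iKO and at 35.8, 40.9 and 47.9 CPM in Dgcr8 controls, a log2 fold change of 3.37 ± 0.308 (adjusted p = 1.34e-05, edgeR). C1qb changed by 3.37 ± 0.301 and C1qc by 3.40 ± 0.331 on the same scale. In Dicer iKO, C1qa was at 248, 444 and 586 CPM, against 126.6, 79.7 and 44.8 CPM in Dicer controls, a log2 fold change of 2.35 ± 0.424 (adjusted p = 0.0101, edgeR). The groups did not overlap, but the controls lay far apart, and without Dicer control 2 the adjusted p of C1qa was 0.0525 in edgeR. C1qb rose by 2.62 ± 0.446 (adjusted p = 0.0083, edgeR) and C1qc by 2.47 ± 0.442 (adjusted p = 0.00987, edgeR). The means of the A chain in both mutants, 426 ± 170 and 431 ± 201 CPM (SD, n = 3), differed by less than their spread, and so did those of the B and C chains.

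The shares of the chains in the summed TPM of the 3 are given as values, since no outcome of their tests could have passed. C1qb made up 48.7 ± 1.35% in crushed nerves, 38.3 ± 1.85% in contralateral (SD, n = 4) and 40.9 ± 2.86% in uncrushed nerves (SD, n = 3). C1qc made up 27.4 ± 0.767%, 35.6 ± 0.509% and 34.4 ± 1.03%. For both chains crushed nerves overlapped neither uninjured group, while the uninjured groups overlapped each other. C1qa, at 23.9 ± 1.57%, 26.1 ± 2.34% and 24.8 ± 1.85%, overlapped. Of 15 two-sided exact permutation tests (3 chains in 5 comparisons), 2 reached an unadjusted p under 0.05, those of C1qb and C1qc in crushed against contralateral nerves, at p = 0.0286, the smallest that 4 against 4 allows. None passed after adjustment over the 15, the lowest adjusted p being 0.214 in these exact permutation tests. With 3 against 3 the smallest p is 0.1 and with 4 against 3 it is 0.0571, and with every test at its smallest p the lowest adjusted p in these exact tests would be 0.0952. In Dgcr8 iKO and Dgcr8 controls the shares of C1qb were 29.7 ± 1.07% and 29.6 ± 2.2% (SD, n = 3), and in Dicer iKO and Dicer controls 31.8 ± 3.11% and 27.2 ± 2.36% (SD, n = 3). The C1qb shares did not overlap between Dicer iKO (29.8 to 35.4%) and its controls (24.7 to 29.4%), at p = 0.1 in the exact permutation test. All other shares overlapped between a mutant and its controls.

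C2 and C4b, the partners that form the classical C3-cleaving enzyme, did not rise with C1q after crush. C4b was at 39.9, 41.4, 46.6 and 43.5 CPM in crushed nerves, at 130.1, 188.3, 150.8 and 132.2 CPM in contralateral nerves and at 134.7, 122.2 and 106.4 CPM in uncrushed nerves. All crushed nerves were far below the rest, and C4b fell by 1.62 ± 0.104 on the log2 scale against uncrushed (adjusted p = 5.89e-08, edgeR) and by 1.95 ± 0.12 against contralateral nerves (adjusted p = 3.21e-09, edgeR). In the mutants C4b was not called: it was at 448, 469 and 524 CPM in Dicer iKO against 224, 291 and 411 CPM in controls (log2 fold change 0.64 ± 0.21, adjusted p = 0.0662, edgeR) and at 509, 554.5 and 471 CPM in Dgcr8 iKO against 425, 457 and 358 CPM in controls (0.30 ± 0.154, adjusted p = 0.133, edgeR). Neither pair of groups overlapped. C4a, a near-identical copy, was listed in the crush libraries only, at 0.502 to 1.96 CPM, and reads could be split between the copies there. C4a itself was not called (log2 fold change -0.62 ± 0.378 against uncrushed nerves).

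C2, the protease subunit of that enzyme, was scarce in the crush experiment, at 1.75, 0.89, 0.599 and 1.30 CPM in crushed nerves and at 1.88 to 4.32 CPM in the 7 uninjured nerves, with at most 47 expected counts in a library. It fell by 1.43 ± 0.375 on the log2 scale against uncrushed nerves (adjusted p = 0.00498, edgeR). In Dgcr8 iKO it stood at 43.5, 48.4 and 46.5 CPM against 8.47, 20.6 and 19.3 CPM in controls, a rise of 1.51 ± 0.251 on the log2 scale (adjusted p = 0.000619, edgeR). In Dicer iKO it stood at 29.6, 69.4 and 56.1 CPM against 136.4, 87.3 and 27.0 CPM in controls (-0.69 ± 0.535, adjusted p = 0.389, edgeR). The Dicer controls thus lay on both sides of the mutants. Without Dicer control 3, C2 was called lower in Dicer iKO (log2 fold change -1.12, adjusted p = 0.04, edgeR), as were 282 of 13272 genes. The difference between mutant effects was then 2.63 (adjusted p = 0.0131, edgeR), against 2.21 ± 0.669 (adjusted p = 0.197, edgeR) with all libraries. Over all genes, 320 of 13791 were called higher and 81 lower for that difference without Dicer control 3, against 1 and 1 with all libraries. A readthrough gene model, Gm20547, overlaps C2 and Cfb on the same strand, and Zbtb12 overlaps C2 on the other. Gm20547 was at 0 to 1.77 CPM, which is of the order of C2 and Cfb in the crush libraries, and reads could be split between these models there.

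C3, the protein on which all pathways converge, fell after crush. It was at 24.1, 33.1, 33.9 and 38.2 CPM in crushed nerves, at 126.9, 243.6, 189.2 and 166.2 CPM in contralateral nerves and at 154.9, 143.8 and 108.8 CPM in uncrushed nerves. C3 fell by 2.19 ± 0.16 on the log2 scale against uncrushed (4.56-fold lower, adjusted p = 1.86e-07, edgeR) and by 2.63 ± 0.188 against contralateral nerves (adjusted p = 1.6e-08, edgeR). In Dgcr8 iKO, C3 was at 405, 511 and 279.5 CPM against 149, 201.5 and 271 CPM in controls. The groups did not overlap and the adjusted p was 0.00961 in edgeR, but the log2 fold change of 0.94 ± 0.247 lies just under the 2-fold limit. C3 was called without Dgcr8 control 3 (1.17) or without Dgcr8 iKO 3 (1.14). In Dicer iKO it was at 234, 273 and 274.5 CPM against 185, 273 and 179 CPM, with overlap (0.30 ± 0.171, adjusted p = 0.246, edgeR).

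Cfb encodes factor B, the alternative-pathway counterpart of C2, and moved opposite to C2 after crush. It was at 6.82, 4.89, 4.69 and 4.62 CPM in crushed nerves, while the uninjured nerves held 0 to 1.28 CPM. Its highest expected count was 78 in crushed, 6 in contralateral and 15 in uncrushed nerves, and 1 library of each uninjured group held none. The log2 fold change was 2.96 ± 0.5 against uncrushed (adjusted p = 0.000243, edgeR) and 3.77 ± 0.397 against contralateral nerves (adjusted p = 1.03e-06, edgeR). The first of these values rests on uncrushed nerve 1, the highest of its group, and was 5.10 without it. In Dgcr8 iKO, Cfb was at 14.4, 28.6 and 19.3 CPM against 2.47, 4.29 and 4.05 CPM in controls (2.52 ± 0.293, adjusted p = 6.23e-05, edgeR). In Dicer iKO it was at 7.16, 18.3 and 13.4 CPM against 15.6, 12.7 and 3.80 CPM in controls, with overlap (0.26 ± 0.507, adjusted p = 0.739, edgeR). The difference between mutant effects was 2.26 ± 0.65 (adjusted p = 0.184, edgeR). It was called by DESeq2 (adjusted p = 0.034) and by edgeR without Dicer control 3 (2.67, adjusted p = 0.0159). Over all genes, DESeq2 called 172 higher and 68 lower of 13552 for that difference. Without Dicer control 3, edgeR called 320 and 81 of 13791.

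After crush the receptors had larger log2 fold changes than the C1q chains. C3ar1, the receptor for the C3 fragment C3a, was at 34.04, 125.1, 73.3 and 70.2 CPM in crushed nerves, at 8.18, 5.76, 3.92 and 6.30 CPM in contralateral nerves and at 7.01, 7.29 and 8.85 CPM in uncrushed nerves. Crushed nerve 1 was again lowest, yet lay well above the highest uninjured nerve. The log2 fold change was 3.18 ± 0.365 against uncrushed (adjusted p = 9.83e-06, edgeR) and 3.50 ± 0.326 against contralateral nerves (adjusted p = 2.79e-07, edgeR). C3ar1 was at 77.9, 46.7 and 127.9 CPM in Dgcr8 iKO against 8.82, 4.56 and 9.25 CPM in controls (3.45 ± 0.361, adjusted p = 3.19e-05, edgeR). In Dicer iKO it was at 81.4, 120.5 and 118.3 CPM against 25.8, 14.7 and 8.69 CPM in controls (2.71 ± 0.358, adjusted p = 0.00389, edgeR). The receptor therefore rose in every comparison with an injured or mutant group, whereas its precursor ligand C3 fell in crushed nerves.

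C5ar1, the receptor for the C5 fragment C5a, was at 14.7, 25.5, 20.4 and 21.9 CPM in crushed nerves and between 1.45 and 2.76 CPM in the 7 uninjured nerves. It rose by 3.26 ± 0.244 against uncrushed (adjusted p = 2.26e-07, edgeR) and by 3.11 ± 0.212 against contralateral nerves (adjusted p = 9.38e-09, edgeR) on the log2 scale. In the mutant experiment it was at 9.53, 5.12 and 11.2 CPM in Dgcr8 iKO against 3.29, 1.21 and 4.78 CPM in controls (1.43 ± 0.416, adjusted p = 0.0163, edgeR), with the lowest mutant just above the highest control. In Dicer iKO it was at 11.8, 15.6 and 13.4 CPM against 10.8, 3.88 and 3.94 CPM in controls (1.14 ± 0.395, adjusted p = 0.0783, edgeR). Without Dicer control 1 the log2 fold change was 1.80 (adjusted p = 0.00335, edgeR), and DESeq2 called the gene with all libraries (adjusted p = 0.0321).

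Between contralateral and uncrushed nerves no member was called, among 8 tested, where 0% of 17722 genes were called by edgeR and 3165 had an unadjusted p under 0.05. DESeq2 called 31 genes lower and 0 higher in that comparison, none of them a member. The log2 differences ran from -0.42 ± 0.225 for C3ar1 to 0.34 ± 0.179 for C3, and every member overlapped between the groups. At an unadjusted p under 0.05 there were 0 members in edgeR and 1 in DESeq2, where 2392 of 17722 genes had such a p. Cfb was too scarce in both groups to be tested.

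Per kilobase of transcript, which adjusts genes for length alone, the order of the members turned over with crush. In uncrushed nerves the highest were C4b (27.8 ± 4.28 CPM per kb, SD, n = 3) and C3 (26.8 ± 4.17), then C1qb (15.3 ± 3.78), C1qc (12.9 ± 2.4) and C1qa (9.14 ± 1.62). In crushed nerves C1qb (93.4 ± 27.9, SD, n = 4), C1qc (53.4 ± 17) and C1qa (44.99 ± 12.2) led, C3ar1 (17.6 ± 8.7) came next, and C4b (9.11 ± 0.789) and C3 (6.3 ± 1.15) lay below them. In Dgcr8 controls C4b was also first (83.2 ± 10.5, n = 3), while C3 (40.3 ± 11.9) and C1qa (39.9 ± 5.85) did not differ beyond their spread. In Dicer controls, in contrast, C1qa (80.5 ± 39.5) and C1qc (63.3 ± 31) stood above C4b (61.5 ± 19.5, n = 3), within their spread. In Dgcr8 iKO the C chain stood at 363 ± 190 and the A chain at 414 ± 193 CPM per kb, above C4b at 98.4 ± 8.61. Cfb, C3ar1 and C5ar1 were the 3 lowest in Dgcr8 controls (1.65, 1.75 and 1.23 CPM per kb) and did not differ beyond their spread. The balance between genes also differed between experiments without crush or Cre. C1qb held 40.9 ± 2.86% of the summed TPM of the C1q chains in uncrushed nerves and 29.6 ± 2.2% in Dgcr8 controls. The reason, library kit among others, was not tested.

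**Figure D3:**
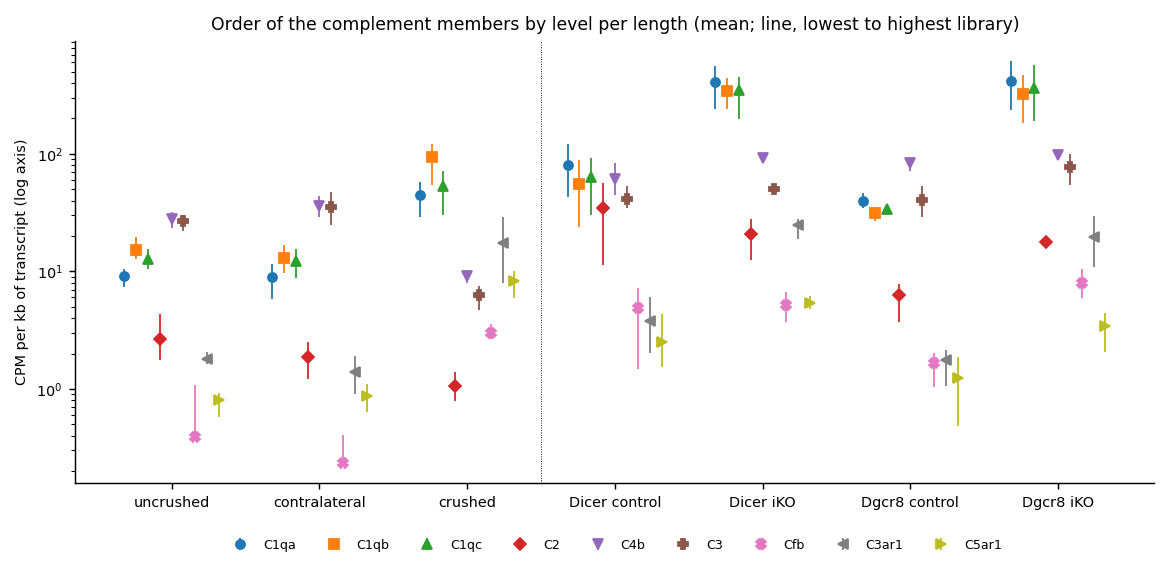
Mean CPM per kilobase of transcript (log axis) of the 9 members in each group, with a line from the lowest to the highest library (upward only where the lowest library is 0); the dotted line separates the experiments. C4b and C3 lead in uncrushed and contralateral nerves, and the C1q chains lead in crushed nerves and in both mutants; C1qa and C1qc are also highest in Dicer controls.

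Genes with the pattern most like that of the C1q chains over the 7 group means of log2(CPM + 1), each experiment centred on its own mean, were Cxcl16, Pik3r5, Myo1f, Cxcr4 and Cd48, at root mean square differences of 0.0778, 0.106, 0.122, 0.135 and 0.135. These were taken from 11228 genes with a mean of at least 5 CPM. C3ar1 was the nearest other member (0.31), and C4b (1.54) and C3 (1.66) were the most distant. The genes most like C3 were Trpm3, Nrep, Adamts20, Car14 and Chadl (0.144 to 0.198), and C4b was the member nearest to C3 (0.271). Cfb lay 0.65 from C1q and 1.42 from C3, C5ar1 0.676 from C1q and 1.62 from C3, and C2 1.36 from C1q and 0.73 from C3.

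Macrophage markers moved with the C1q chains and the receptors. Of 14 markers, 12 rose in crushed against uncrushed nerves (median 2.54 on the log2 scale, -0.03 over all genes), 9 rose in Dicer iKO (median 2.24) and 10 in Dgcr8 iKO (median 2.90), where Cd163, a scavenger receptor of resident macrophages, fell by 2.61 ± 0.29 on the log2 scale. Their summed level was 1029 to 2392 CPM in crushed, 189.8 to 306.1 in contralateral and 261.5 to 286.4 in uncrushed nerves. It was 4561 to 7840 CPM in Dicer iKO against 564 to 1364 in controls, and 3039 to 7266 CPM in Dgcr8 iKO against 532 to 613 in controls. The 3 C1q chains together came to 11.6 to 12.3% of that sum in crushed nerves, 14.3 to 16.2% in contralateral and 13.0 to 17.98% in uncrushed nerves, so that crushed nerves were lowest on this ratio. In the mutant experiment the ratio was 16.4 to 20.6% in Dicer iKO against 19.0 to 24.4% in controls, with overlap. It was 21.9 to 25.3% in Dgcr8 iKO against 19.2 to 21.8% in controls, just without overlap. Neither was tested. Mean Lyz2 was 4417 CPM in Dicer iKO against 325 CPM in controls, and 3403 CPM in Dgcr8 iKO against 137 CPM in controls. The part that macrophage number plays in the C1q and receptor values was not tested.

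**Figure D4:**
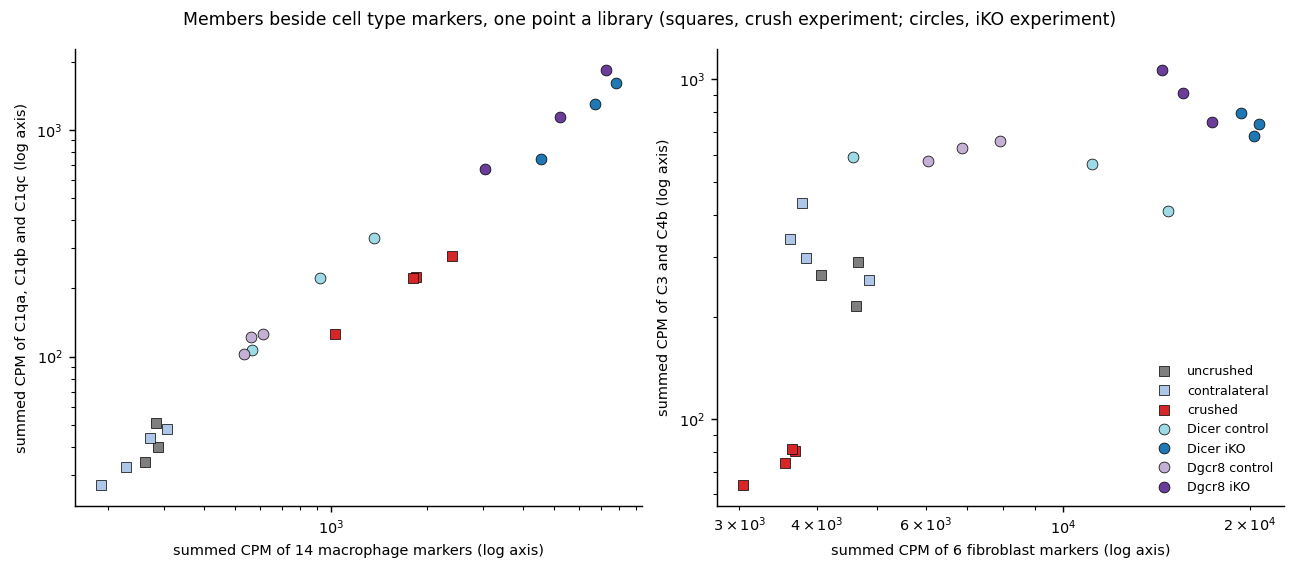
Summed CPM of the C1q chains against that of 14 macrophage markers (left) and of C3 and C4b against that of 6 fibroblast markers (right), 1 point a library, both axes logarithmic; squares are the crush and circles the mutant experiment. On the left, libraries with more macrophage marker RNA tend to hold more C1q RNA within each experiment; on the right, the 4 crushed nerves lie at 64.0 to 81.7 CPM of C3 and C4b, below the 215 to 432 CPM of the uninjured nerves.

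Other marker lists are set beside C3, C4b and C2 here. C3 and C4b together came to 64.0 to 81.7 CPM in crushed nerves, where 6 fibroblast markers summed to 3042 to 3696 CPM, against 3624 to 4849 CPM in uninjured nerves, and 0 of the 6 were called in either direction. Of 8 Schwann cell markers, 6 fell in crushed against uncrushed nerves (median log2 fold change -3.68). In Dgcr8 iKO 4 of the 8 fell, with a sum of 14672 to 28429 CPM against 42454 to 46208 in controls. In Dicer iKO none was called, and the sum was 22361 to 27444 against 28036 to 46872 CPM, without overlap. In Dgcr8 iKO 4 of the 6 fibroblast markers rose and their sum was 14427 to 17391 CPM against 6044 to 7897 in controls, and in Dicer iKO 3 rose and it was 19348 to 20646 against 4578 to 14753. Dicer control 3, with the lowest fibroblast and macrophage sums and the highest Schwann cell sum of its group, also had the lowest C2, Cfb and C1q levels and the highest C4b. The part of fibroblasts, Schwann cells or other cells in these members was not tested. The 8 neutrophil markers summed to 24.5 to 63.1 CPM over all groups, but single markers moved in opposite directions. Cxcr2 fell by 1.02 ± 0.127 in crushed against uncrushed nerves and by 2.46 ± 0.286 in Dgcr8 iKO on the log2 scale. Csf3r rose by 2.95 ± 0.441 in Dicer iKO and 3.18 ± 0.285 in Dgcr8 iKO, where 3 of 4 tested markers rose and 1 fell. Retnlg had a mean of 15.5 CPM in crushed, 0.057 CPM in uncrushed and 0 in contralateral nerves. The part of neutrophils in the receptor values was not tested. Lymphocyte markers summed to at most 10.8 CPM, and those of liver, the main source of plasma complement, to at most 7.76 CPM. The 4 endothelial markers summed to 149.5 to 184.4 CPM in crushed against 89.8 to 118.9 CPM in uninjured nerves, with Tek and Cdh5 called higher. Cldn5 went the other way, by -0.62 ± 0.248 against uncrushed and -0.91 ± 0.129 against contralateral nerves on the log2 scale, under the 2-fold limit. In the mutant experiment the endothelial markers summed to 138.9 to 144.5 CPM in Dicer iKO against 200.9 to 224.7 in controls. In Dgcr8 iKO they summed to 135.5 to 188.1 CPM against 204.1 to 236.2 in controls. Cldn5 was called lower there, while Cdh5 was not called and had a positive log2 fold change (0.36 ± 0.174). The part of endothelial cells was not tested.

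Of 44 other complement genes, 27 could be tested in crushed against uncrushed nerves, of which 8 rose and 10 fell (median -0.77 on the log2 scale, -0.03 over all genes). Over all genes, 15.3% were called higher and 21.1% lower in that comparison. Against contralateral nerves 26 were tested, of which 9 rose and 9 fell, where 14.6% of all genes were called higher and 13.6% lower. The same shares apply to the smaller lists that follow. The rest were too scarce, among them genes made mainly in liver. Of 8 receptors and binding proteins, 6 were tested and 5 rose against uncrushed nerves, 6 against contralateral nerves, and none fell. Itgam, the alpha chain of complement receptor 3, rose by 4.62 ± 0.206 on the log2 scale, and its mean was 143 ± 35.2 CPM in crushed (SD, n = 4) against 5.29 ± 0.4 CPM in uncrushed nerves (SD, n = 3). Itgb2, the shared beta chain of the integrin receptors, rose by 3.06 ± 0.204 and Itgax, the alpha chain of complement receptor 4, by 3.60 ± 0.386. Cd93, a surface protein first described as a C1q receptor, was called against uncrushed nerves as well (2.43 ± 0.179), and so was the C1q-binding protein C1qbp (1.29 ± 0.129). C5ar2, the other C5a receptor, was called against contralateral nerves only (1.36 ± 0.254), a difference between comparisons that was not tested.

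Many regulators fell after crush. Of 14 listed, 12 were tested in crushed against uncrushed nerves and 8 fell, where 21.1% of all genes were called lower. Against contralateral nerves 8 fell again (13.6% of all genes), with Susd4 (-1.19 ± 0.241) called in place of C4bp. Cd55, which speeds the decay of the C3-cleaving enzymes on the cell surface, fell by 2.59 ± 0.109 on the log2 scale. Its mean was 15.4 ± 1.44 CPM in crushed (SD, n = 4) against 85.9 ± 7.16 CPM in uncrushed nerves (SD, n = 3). Cd59a and Cd59b, which block the terminal pore, fell by 1.27 ± 0.0943 and 1.33 ± 0.215. Cd46, a cofactor for cleavage of C3b, fell by 1.01 ± 0.216, and vitronectin (Vtn), a soluble inhibitor of the pore, by 1.91 ± 0.22. C4bp (-1.45 ± 0.347), Csmd1 (-1.08 ± 0.126) and the C1 inhibitor Serping1 (-1.05 ± 0.162) were also lower.

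Among 12 initiation genes, 6 were tested in crushed against uncrushed nerves. Fcna, a ficolin that recognises targets for the lectin pathway, rose (3.91 ± 0.5), and Masp1, a protease of that pathway, fell (-2.61 ± 0.517) from 1.67 to 0.292 CPM. C1s2 (-1.17 ± 0.366) was the remaining call, at 0.615 CPM in crushed, 1.29 CPM in uncrushed and 0.511 CPM in contralateral nerves, so it was not lower than in contralateral nerves, a comparison in which it was too scarce to be tested. Among 10 amplification and terminal genes, 3 were tested, and properdin (Cfp), which stabilises the alternative pathway enzyme, rose by 2.87 ± 0.221 to 23.8 ± 4.18 CPM (SD, n = 4).

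In Dgcr8 iKO, 24 of the 44 genes were tested, and 12 rose and 3 fell (median 0.88 on the log2 scale). Over all genes, 13.4% were called higher and 6.99% lower in Dgcr8 iKO. Itgax rose most (7.37 ± 0.619), from 0.733 ± 0.561 to 120 ± 79.6 CPM (SD, n = 3), followed by C7, a component of the terminal pore (4.32 ± 0.817, from 0.0894 CPM, under the limit of 3 counts), Fcna (3.36 ± 0.727) and Itgb2 (3.33 ± 0.234). Masp1 (-1.50 ± 0.502), Cd55 (-1.45 ± 0.197) and Cd46 (-1.35 ± 0.183) were lower, as they were after crush. Serping1 (1.24 ± 0.138) and Vtn (1.07 ± 0.203) were higher in Dgcr8 iKO and lower after crush, as separate calls. In Dicer iKO, 22 were tested and 6 rose: Itgax (5.58 ± 0.629), Itgam (2.59 ± 0.417), Itgb2 (2.36 ± 0.313), Fcna (2.13 ± 0.52), Cd93 (1.80 ± 0.114) and Csmd1 (1.09 ± 0.175), the last of these a membrane regulator. None fell there, by edgeR with all libraries. Over all genes, 7.37% were called higher and 1.64% lower in Dicer iKO. Of 25 genes tested for a difference between the mutant effects, 0 passed, where 0.0148% of all genes did.

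**Figure D5:**
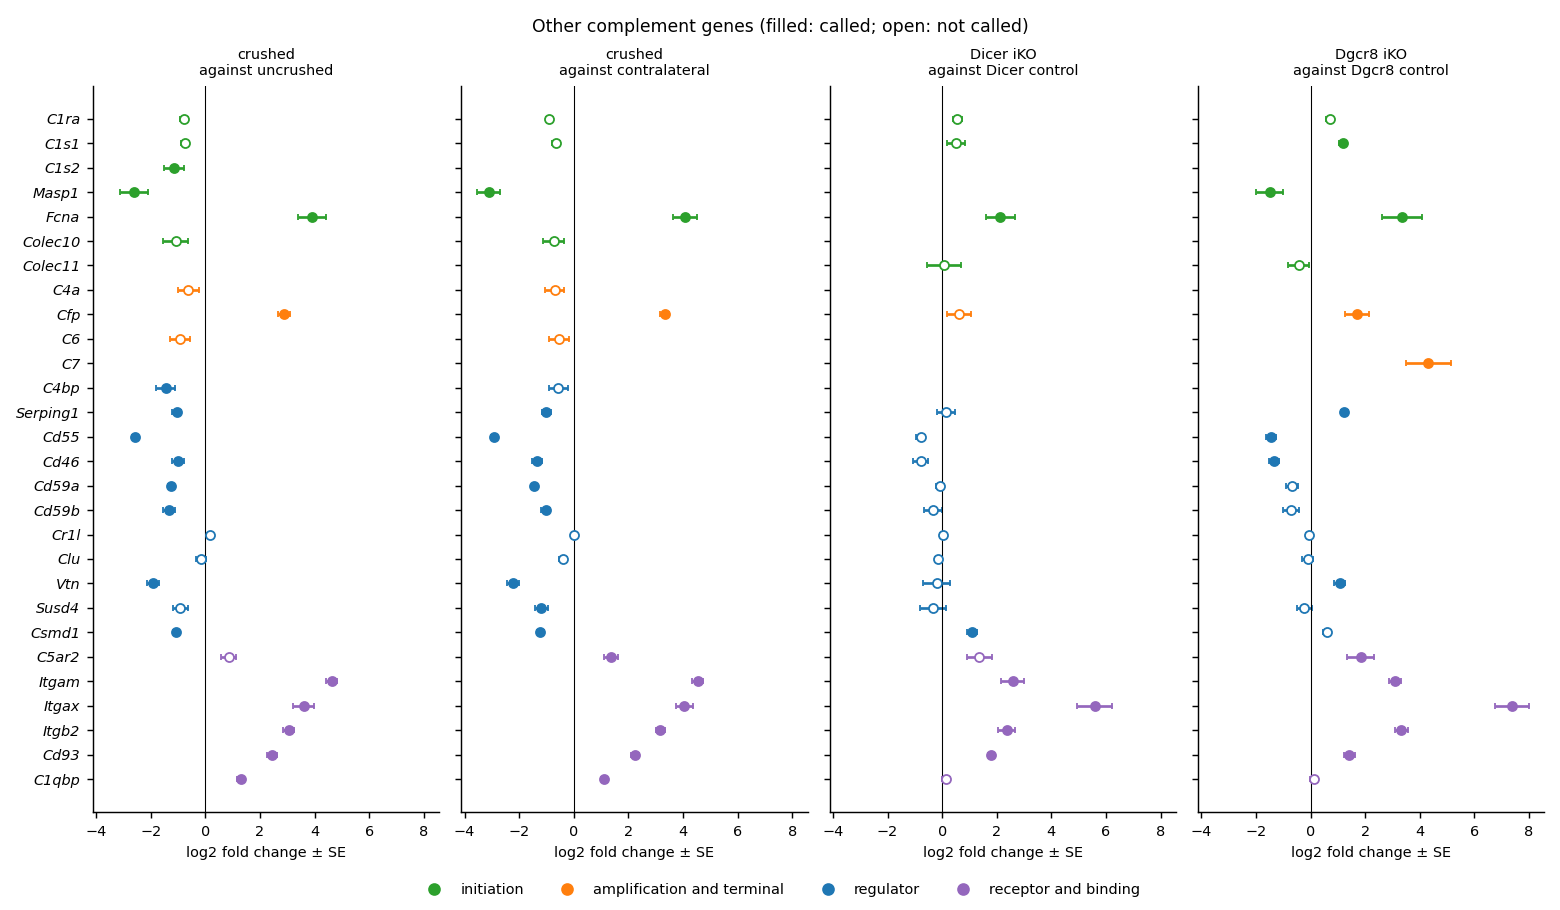
Log2 fold change with its SE of the other complement genes that were tested in 4 comparisons (1 gene is not shown), coloured by list, filled where called and open where not. Receptors and binding proteins lie to the right in each panel, and most regulators lie to the left after crush.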

How the data were processed

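RNA sequencing of whole sciatic nerve was analysed in 23 libraries. Per the labels and the methods, the authors trimmed reads with Trimmomatic, aligned them with STAR to GRCm38 and estimated transcript levels with RSEM. Per the labels, the crush libraries were made with a SMARTer pico kit and the mutant libraries with a stranded TruSeq kit after ribosomal RNA removal, whereas the methods name the TruSeq kit alone. The deposited values are RSEM expected counts, TPM and FPKM per transcript. A 5S ribosomal RNA model took 61.4 to 71.8% of the TPM in crush libraries, so TPM, which the authors deposited scaled to the same total in each library, was used only for ratios within a library; the deposited FPKM served only in an alternative for the C1q shares.

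The expected counts of a gene's transcripts were added up and rounded to whole numbers. Each comparison was fitted in edgeR 4.0.16 (R 4.3.3) by the quasi-likelihood test on its own libraries, with TMM scaling, filterByExpr at a minimum count of 10, and Benjamini-Hochberg adjustment over all genes; the SE of a log2 fold change came from its F statistic. The difference between mutant effects was an interaction term over 12 libraries. Alternatives used DESeq2 1.42.0, other scalings and filters, all groups of an experiment in 1 fit, protein-coding genes, a replicate block, and each library left out. The fitting procedure was tested on simulated data. Levels per kilobase divided each transcript's count by its length. Promoter windows came from RefSeq. Groups and replicate numbers followed sample titles; 1 uncrushed nerve has a different number in its description. By the methods, the contralateral nerve was taken from the same mice as the crushed nerve. The labels do not say which nerves came from the same animal. All nerves were therefore treated as unpaired, and p-values measure the spread between these libraries.

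The members and gene lists were chosen with earlier results of these data known. Named were the 9 members, of the other complement genes up to the 4 highest and 4 lowest called in each comparison and those that a small count concerns, C4a, overlapping gene models, the targeted genes, the 5 genes closest in pattern to C1q and to C3, and at most 3 genes of a marker list; other called complement genes in the text were named after their values were seen. The values of 1 other complement gene are not reported here; it is included in the counts.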

Additional observations from a re-analysis of the deposited data

Results flagged for a closer look

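Among the 18 sets of 4 values tested (9 members in crushed and in contralateral nerves), 1 held a library far from the others, and chance alone would give about 1 in 20. It was Cfb in crushed nerves, where crushed nerve 1, at 6.82 CPM against 4.62 to 4.89 CPM in the other 3, had a gap that took 0.875 of the range of the group. Without that library the log2 fold change of Cfb was 2.79 against uncrushed and 3.58 against contralateral nerves, both called by edgeR. Crushed nerve 1 was also the lowest crushed nerve for the C1q chains, C3ar1, C5ar1, C3 and C4b, and the highest for C2. It held the most adipocyte marker RNA of its group. The part of these differences in the Cfb value was not tested.

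For C2 the direction differed between the mutants relative to the control means, although the change in Dicer iKO was not called and its groups overlapped: every Dicer iKO nerve was below the mean of its controls and every Dgcr8 iKO nerve above the mean of its own, a log2 difference between the effects of 2.21 ± 0.669 (adjusted p = 0.197 in edgeR), which did not pass the test. The 3 Dicer controls, at 136.4, 87.3 and 27.0 CPM, also had the widest spread of any group for this gene. Their fibroblast marker sums (14753, 11099 and 4578 CPM) and macrophage marker sums (1364, 922 and 564 CPM) ran in the same order. Their Schwann cell marker sums (28036, 36658 and 46872 CPM) ran in the reverse order. The part of any of these cells in the C2 values was not tested.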

How the results depend on the processing

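The counts of members called after crush, 6 higher and 3 lower in each comparison, held with any library left out and under all alternatives but 1: requiring at least 10 counts in every library left Cfb and C2 untested there and gave 5 and 2, and left C5ar1 untested in Dgcr8 iKO, giving 6 higher where 7 were. The replicate numbers are not known to pair the samples. Same-numbered deviations correlated from -0.174 to 0.177, which with so few libraries cannot show whether the numbers pair them. With the number as a block, 1 member was called higher in Dicer iKO (C3ar1) where 4 were without it; the C1q chains kept log2 fold changes of 2.39, 2.74 and 2.52 at adjusted p of 0.0622, 0.0509 and 0.0598 in edgeR. The other counts of members called were the same; over all genes the block gave 548 higher and 92 lower in Dicer iKO, against 961 and 214, and 0 and 6 between contralateral and uncrushed nerves, against 0 and 0. With 1 library left out, from 3 to 5 members were higher and from 0 to 1 lower in Dicer iKO. In Dgcr8 iKO from 7 to 8 were higher, and from 0 to 2 differed between mutants. The 1 lower and the 2 differing came without Dicer control 3. Over all genes, that setting gave 282 lower of 13272 in Dicer iKO, against 214 with all libraries. For the difference between mutant effects it gave 320 higher and 81 lower of 13791, against 1 and 1. DESeq2 gave 1 differing member, and over all genes 172 higher and 68 lower for that difference where edgeR gave 1 and 1. The 0 adjusted calls for C1q chain shares were fixed by the group sizes and say nothing of stability.

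Of 816 recomputed fold changes of single members, 788 kept direction and call, 4 lost a call, 9 gained one and 15 changed sign; none of those 15 belonged to a call. Between contralateral and uncrushed nerves, leaving out libraries gave log2 fold changes from -0.29 to 0.048 for C1qa, -0.31 to 0.0088 for C1qc, -0.40 to 0.055 for C2 and -0.16 to 0.19 for C5ar1, with 0.020 for C2 under library totals only and -0.097 for C5ar1 with the block. Cfb in Dicer iKO ranged from -0.15 to 0.64, and the mutant difference of C5ar1 from -0.37 to 0.75. Among other complement genes, 1 was called lower in Dicer iKO with no filter or without Dicer control 1 or Dicer iKO 1, an alternative added after the data were seen. C3 in Dgcr8 iKO was called with library totals only (1.05). The cause of these changes was not tested. Depth limits C2 in crushed nerves (at most 20 counts a library) and Cfb in contralateral (at most 6) and uncrushed nerves (at most 15).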
